A study of Mus musculus with 9 samples.

Results

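The pyruvate dehydrogenase kinases Pdk1, Pdk2, Pdk3 and Pdk4, their substrate Pdha1, and the enzymes Pck1, Pck2, Pcx and Fbp2 were followed in lactating mammary glands of WT and hNAG-1 dams. These 9 genes of the 27962 gene names on the array were chosen by name, and every probe that carries one of the names was used. This gave 12 of 41174 probes, with a pair of probes each for Pdk1, Pdk3 and Pdha1. The group was singled out because Pdk4 and Pck1 stood out in this same comparison of genotypes, so the genotype differences of its members are described with their standard errors and without a test. RNA came from mammary gland number 4 on lactation day 2 (L2) of 4 WT and 5 hNAG-1 dams after litter 4, with 1 array for each dam. hNAG-1 dams carry a transgene for ubiquitous expression of human NAG-1, also known as GDF15, WT dams are wild type, and the labels give the strain background of both as C57BL/7. The dams were untreated as far as the labels go, which give lactation day and no age. The study worked mainly with 1 of its transgenic lines and combined the lines in some experiments, and whether these glands came from that line alone is not given in the sources used here. No probe for human NAG-1 was used, so the transgene itself was not checked on these arrays.

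The pyruvate dehydrogenase complex turns pyruvate into acetyl-CoA, and it is the gate between sugar breakdown and the citric acid cycle or fat synthesis. The kinases of the PDK family phosphorylate its E1 alpha subunit, encoded by Pdha1, and thereby switch the complex off, while the phosphatases encoded by Pdp1 and Pdp2 remove the phosphate again. Pdk4 is the kinase best known for induction by fasting, fatty acids and glucocorticoids through PPAR and FoxO factors. Pcx carboxylates pyruvate to oxaloacetate, Pck1 in the cytosol and Pck2 in mitochondria convert oxaloacetate to phosphoenolpyruvate, and fructose bisphosphatase, whose muscle form is Fbp2, acts further along the path to glucose. Outside liver and kidney, Pck1 is known in fat tissue for making the glycerol backbone of triglycerides from pyruvate, and Pcx supplies oxaloacetate for the citrate used in fatty acid synthesis. The lactating gland combines secretory epithelium that makes milk sugar and milk fat with the remaining fat pad.

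Intensities were scaled so that each array had the same 75th percentile, and values below are these scaled intensities or differences of their log2, always as hNAG-1 minus WT. Fewer cells of a type and less RNA per cell cannot be told apart in whole glands. The share of features well above background ranged from 59.8% to 76.1% over the 9 arrays. On hNAG-1 1 to 4 it was 69.7%, 60.3%, 64.6% and 59.8%. All of WT 2 to 4 and hNAG-1 5 lay above these, with hNAG-1 5 at 73.3%, while WT 1 lay within the range of hNAG-1 1 to 4. This share thus differed between slides 2 and 3, described next, and its part in the genotype differences was not tested. Of the 3 slides used, slide 1 carried the array of WT 1 and slide 2 carried those of hNAG-1 1 to 4. WT 2 to 4 shared slide 3 with hNAG-1 5, so a comparison within a slide rests on hNAG-1 5 against 3 WT arrays. For each member a value with the slide as a block is therefore given as well, and it equals the difference within slide 3. Of the 12 member probes, 11 were well above background on all 9 arrays and 0 were saturated on any array.

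Pdk4 and Pck1 were the members with the lowest values in hNAG-1 glands relative to WT. On the 4 hNAG-1 arrays of slide 2 Pdk4 lay below every WT array, as Pck1 did on 3 of them, and on hNAG-1 5 both lay within the range of the WT arrays. Each of these genes was read by 1 probe, and the opening 30 of its 60 bases are shown with those of the paired Pdk3 probes, since these letters are what the intensities below measure:
Pdk4 A_51_P350453: tatgaacccatgggagactttaaactcttg
Pck1 A_51_P250217: attatttttatacaccgcccttacctttct
Pdk3 A_51_P392291: cctatattctgtatcttgttatggagttta
Pdk3 A_52_P99622: aaatacaaggctaaacaggacaagatcaag
In the mm7 coordinates of the array's design the Pdk4 probe lies at chr6:5436327-5436386 on the minus strand, and the Pck1 probe at chr2:172903552-172903615 on the plus strand. The Pdk3 probes lie on the minus strand at chrX:89151540-89151599 and chrX:89151865-89155557. The second Pdk3 interval spans 3693 bases, the Pck1 interval 64 and that of the Fbp2 probe, on 13_random, 627025, each for a probe of 60 bases, so these probes do not match their interval as 1 contiguous run. The files place no probe in an exon, intron or UTR, and this annotation was not used here.

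Pdk4 gave scaled intensities of 3866, 2060, 2619 and 3903 on WT 1 to 4. On hNAG-1 1 to 5 it gave 908, 1296, 1227, 1123 and 3291. The 4 hNAG-1 arrays of slide 2 lay below every WT array, while hNAG-1 5 lay above WT 2 and WT 3, so the genotypes overlapped. Pdk4 averaged 3112 ± 921 (SD, n = 4) over the WT arrays and 1569 ± 974 (SD, n = 5) over the hNAG-1 arrays. The log2 difference was -1.10 with a standard error of 0.38, which is 2.15-fold lower. On slide 2 alone the mean of hNAG-1 was 1138 ± 169 (SD, n = 4), against 2861 ± 945 (SD, n = 3) for WT on slide 3. With the slide as a block the sign turned, and the log2 difference was 0.25 with a standard error of 0.39. Without hNAG-1 5 the log2 difference was -1.41, and no slide then held both genotypes, so that genotype and slide cannot be told apart. The low Pdk4 values were thus those of slide 2, and the part of the slide in the genotype difference was not tested.

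Pck1 gave 10140, 25120, 13809 and 19024 on WT 1 to 4. On hNAG-1 1 to 5 it gave 5861, 7045, 11399, 4658 and 14967. Here 3 of the 5 hNAG-1 arrays lay below every WT array, and hNAG-1 3 and hNAG-1 5 lay above WT 1. Pck1 averaged 17023 ± 6513 (SD, n = 4) over the WT arrays and 8786 ± 4291 (SD, n = 5) over the hNAG-1 arrays. The log2 difference was -1.01 with a standard error of 0.39, which is 2.01-fold lower. With the slide as a block the direction held at -0.33, with a standard error of 0.52 that exceeds the difference itself. Pck1 on hNAG-1 5 was above WT 3 and below WT 2 and WT 4 of the same slide.

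**Figure D1:**
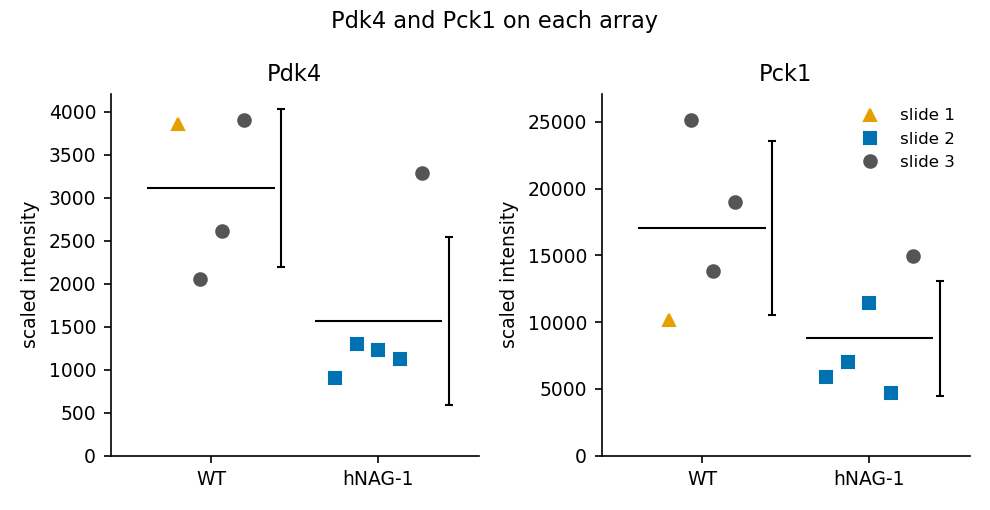
Scaled intensity (vertical axis, linear) of Pdk4 and Pck1 on each array by genotype, with slides as symbols, genotype means as horizontal lines and SD as error bars. Pdk4 on the 4 hNAG-1 arrays of slide 2 lies between 908 and 1296, and the hNAG-1 array of slide 3 reaches 3291, within the WT range.

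The promoter windows of Pdk4 and Pck1 are shown because these members were low on largely the same arrays. Each is the 250 bases before the annotated start in RefSeq, build GRCm38.p6, written 5′ to 3′ along the gene, with motif matches in capitals:
Pdk4 promoter, chr6:5496279-5496528, minus strand: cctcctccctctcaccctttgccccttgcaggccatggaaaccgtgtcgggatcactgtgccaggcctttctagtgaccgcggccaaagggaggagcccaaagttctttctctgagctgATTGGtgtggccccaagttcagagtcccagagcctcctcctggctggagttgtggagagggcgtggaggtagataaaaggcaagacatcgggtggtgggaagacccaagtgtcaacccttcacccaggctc
Pck1 promoter, chr2:173152823-173153072, plus strand: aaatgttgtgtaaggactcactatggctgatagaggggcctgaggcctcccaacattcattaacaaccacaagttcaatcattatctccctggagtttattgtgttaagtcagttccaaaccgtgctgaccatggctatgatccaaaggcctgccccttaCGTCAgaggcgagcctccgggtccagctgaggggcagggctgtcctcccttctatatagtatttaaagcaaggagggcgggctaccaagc
Both strands were searched for 6 motifs. TATAAA is 1 form of the TATA box, and CCAAT is the box of that name. CGTCA is the core of a cAMP response element, and AGGTCA is a core that nuclear receptors bind. GTAAACA is a forkhead motif, and AGAACA is a core of glucocorticoid receptor sites, and no motif contains another. The Pdk4 window held 1 CCAAT, on the minus strand of the gene at 131 bases before the start, a motif found in 33.8% of the 32851 promoter windows in the table. The windows of Pdk2, Pdk3, Pck2 and Pcx held CCAAT too, with 3, 1, 1 and 3 matches. The Pck1 window held 1 CGTCA at 90 bases before the start, and 17.8% of all windows hold that motif. The Fbp2 window held CGTCA as well, at 97 bases before its start. None of the 12 windows listed for the 9 members held the letters AGGTCA (14.0% of all windows), GTAAACA (3.17%) or TATAAA (12.4%). Other spellings of these motifs, among them other forms of the TATA box, were not searched. The glucocorticoid receptor core, in 16.1% of all windows, was found in 1 of the Pdk1 windows. The CpG count was 6 in the Pdk4 window and 5 in the Pck1 window, beside a median of 6 over all windows, whereas the Pdk3 window held 29.

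Over all arrays the other kinases differed less between genotypes than Pdk4, whereas with the slide as a block Pdk2, 1 Pdk3 probe and 1 Pdk1 probe had differences as large as the 0.25 of Pdk4 or larger. Pdk1, the kinase known as a target of hypoxia signalling, was read by 2 probes. The first, A_51_P406429, gave 3025, 2665, 2553 and 2641 on WT 1 to 4, and 2242, 3511, 3149, 2079 and 2698 on hNAG-1 1 to 5. The hNAG-1 arrays lay on both sides of the WT arrays, and the log2 difference was -0.02 with a standard error of 0.18, or 0.04 with the slide as a block and from -0.11 to 0.07 with 1 array left out. The second, A_52_P277654, gave 6459, 4283, 4154 and 4513 in WT, and 4424, 5384, 5667, 3796 and 5151 in hNAG-1. WT 1 was the highest of all arrays for this probe, and its log2 difference was 0.02 with a standard error of 0.19, or 0.26 with the slide as a block and from -0.05 to 0.16 with 1 array left out.

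Pdk2, a widely expressed kinase of the family, gave 295, 277, 290 and 384 on WT 1 to 4. On hNAG-1 1 to 5 it gave 347, 386, 415, 310 and 418. On 3 of the 5 hNAG-1 arrays Pdk2 was above every WT array, and the others lay below WT 4. The log2 difference was 0.27 with a standard error of 0.16, and with the slide as a block it was 0.41 with a standard error of 0.30.

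Pdk3, a kinase with low intensity on these arrays, gave 135, 270, 141 and 120 on WT 1 to 4 with A_51_P392291, and 96.0, 121, 138, 163 and 146 on hNAG-1 1 to 5. WT 2 was high among the WT arrays, and the genotypes overlapped with a log2 difference of -0.27 and a standard error of 0.26. Leaving out 1 array at a time moved it between -0.40 without WT 4 and -0.0055 without WT 2. The other probe, A_52_P99622, gave 105, 201, 122 and 111 in WT, and 98.8, 54.3, 112, 87.0 and 177 in hNAG-1. WT 2 was again the highest WT array, and the log2 difference was -0.40 with a standard error of 0.34, and leaving out 1 array at a time moved it between -0.61 without hNAG-1 5, which is past 1.5-fold, and -0.19 without hNAG-1 2 or without WT 2. With the slide as a block the probes disagreed in sign, at -0.18 and 0.34.

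Pdha1, the subunit that the kinases phosphorylate, gave 23509, 15566, 21435 and 19313 on WT 1 to 4 with A_51_P321391, and 23811, 20035, 18260, 23517 and 22524 on hNAG-1 1 to 5. Its other probe, A_52_P581435, gave 6573, 5484, 7393 and 7201 in WT, and 7483, 10303, 6331, 7410 and 7248 in hNAG-1. WT 2 was the lowest of all arrays with both probes, and the remaining arrays overlapped. The log2 differences were 0.13 with a standard error of 0.17 and 0.21 with a standard error of 0.18, and with the slide as a block they were 0.28 and 0.13. Leaving out 1 array at a time moved the former between 0.01 without WT 2 and 0.21 without WT 1, and the latter between 0.10 without hNAG-1 2 and 0.28 without hNAG-1 3. RNA levels say nothing of the phosphorylation of the subunit, which was not measured here.

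Among the other enzymes, Pck2, the mitochondrial counterpart of Pck1, gave 4625, 3566, 2794 and 3083 on WT 1 to 4 and 3232, 2210, 3584, 2594 and 4317 on hNAG-1 1 to 5. Its log2 difference was -0.16 with a standard error of 0.24, and leaving out 1 array at a time moved it between -0.27 without hNAG-1 5 and -0.01 without WT 1. Within slide 3, hNAG-1 5 lay above all 3 WT arrays, and with the slide as a block the difference was 0.46 with a standard error of 0.33. Pck2 and Pck1 thus had opposite signs within slide 3.

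Pcx gave 69948, 36401, 69973 and 71417 on WT 1 to 4, and 90865, 103544, 80627, 62153 and 70280 on hNAG-1 1 to 5. WT 2 was low, and 3 hNAG-1 arrays were above every WT array. The log2 difference was 0.42 with a standard error of 0.25, and it was 0.19 without WT 2 and 0.31 with the slide as a block. Fbp2, the muscle isoform, was dim. It gave 5.12, 39.9, 16.6 and 120 in WT and 52.3, 8.79, 32.0, 7.44 and 46.5 in hNAG-1, and it was well above background on 2 WT and 3 hNAG-1 arrays. Its log2 difference of -0.20 had a standard error of 0.95, and leaving out 1 array at a time moved it between -0.97 and 0.55. The slide as a block gave 0.11.

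**Figure D2:**
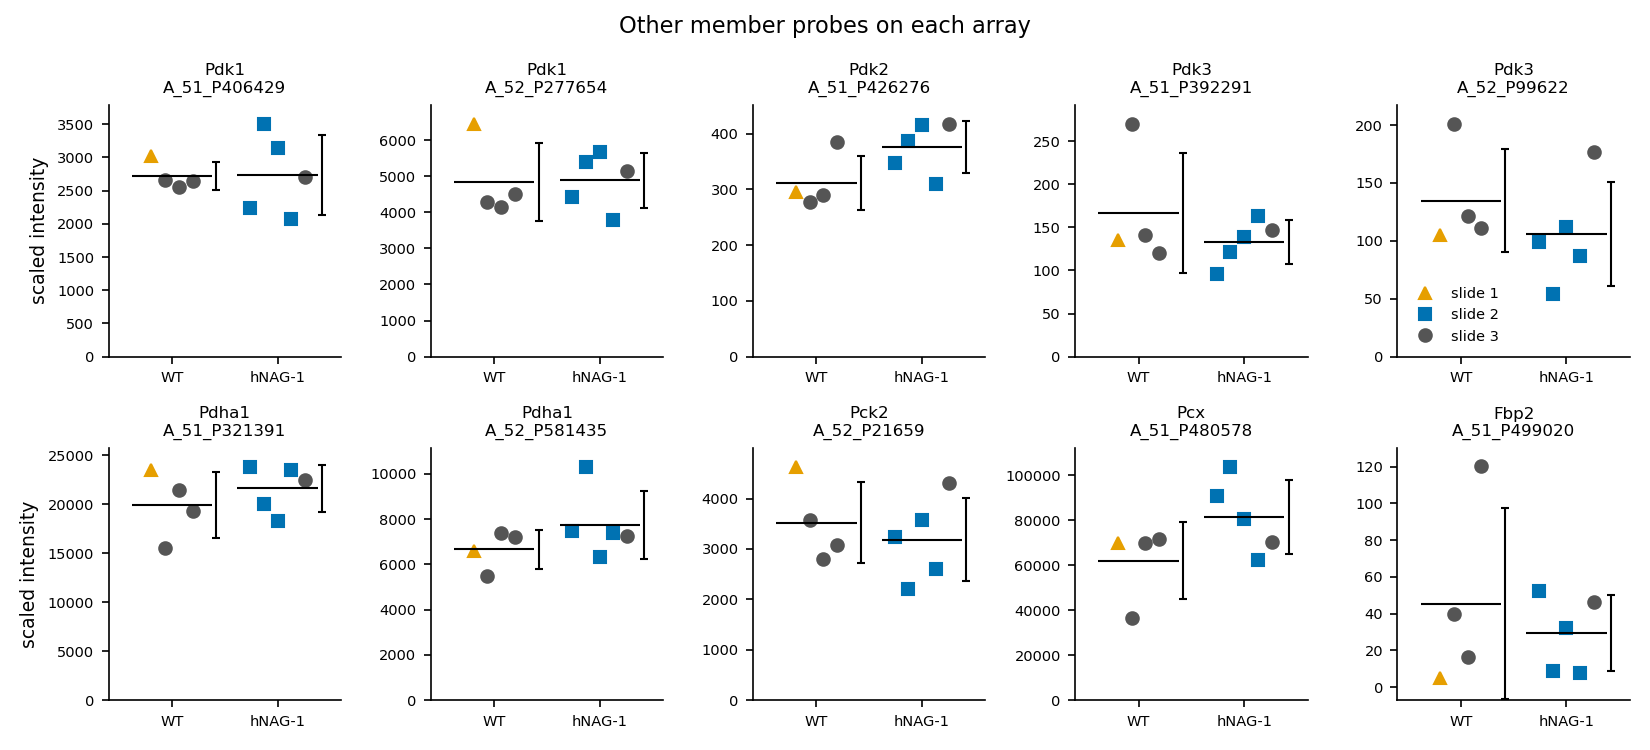
Scaled intensity (vertical axes, linear, 1 scale per panel) of the 10 other member probes on each array by genotype, with slides as symbols, means as horizontal lines and SD as error bars. In every panel the genotypes overlap. WT 2 is the lowest WT array for Pcx and Pdha1 and the highest for Pdk3.

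Over all 12 member probes, 7 were lower and 5 higher in hNAG-1, and 2 were lower by at least 1.5-fold, as were 13.6% of all probes on the array. None was higher by that much, beside 3.02% of all probes. The genotypes did not overlap for 0 of the 12, beside 1.38% of all probes. These counts come from the comparison in which Pdk4 and Pck1 were noticed, and nothing is read from them. The members nearest to the limit of 1.5-fold, which is 0.58 on the log2 scale, were Pcx at 0.42 and Pdk3 A_52_P99622 at -0.40 inside it, and the nearest outside it was Pck1 at -1.01, or 2.01-fold. With the slide as a block 10 of the 12 were higher and 2 lower, 7 kept their sign, and all 12 were within 1.5-fold. The median over all probes moved from -0.01 to 0.19 under the same setting, and 68.5% of all probes were then higher and 31.5% lower. Over 5 settings of scaling or background correction, the log2 difference of Pdk4 ranged from -1.25 to -0.89 and that of Pck1 from -1.16 to -0.80. Pdk2, both Pdk3 probes, Pdha1 A_52_P581435 and Pcx also kept their direction over these settings. Both Pdk1 probes, Pdha1 A_51_P321391, Pck2 and Fbp2 changed sign among them.

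**Figure D3:**
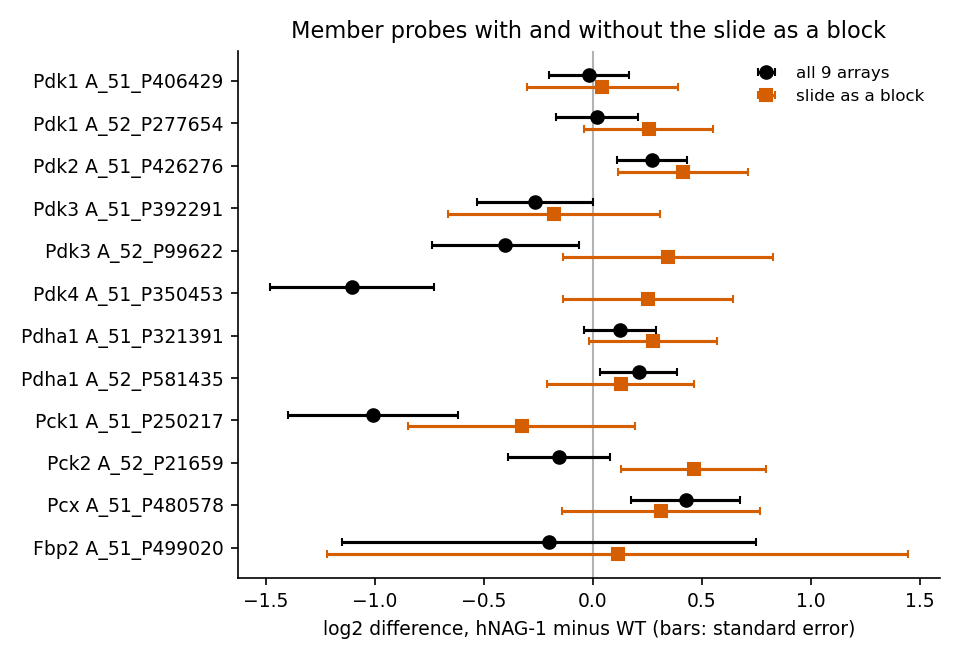
Log2 difference of hNAG-1 minus WT (horizontal axis) for the 12 member probes, over all 9 arrays and with the slide as a block, with standard errors as bars. Pdk4 moves from -1.10 to 0.25 and Pck1 from -1.01 to -0.33 when the slide is a block, and the other probes lie within 1.5-fold in both.

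Around these members, 5 lists of pathway genes were read, with 91 of 95 listed genes measured. At an unadjusted p under 0.05 from limma's lmFit and eBayes, 4 of the 91, or 4.4%, differed between genotypes, beside 5.62% of all probes. After Benjamini-Hochberg adjustment over all probes 0 of the 91 passed, with a lowest adjusted p of 0.654 in limma, beside 0.00243% of all probes. Of the 4, 3 were lower and 1 higher, and of all probes 4.42% were lower and 1.2% higher at that threshold. The median log2 difference was 0.07 over the 91 genes and -0.01 over all probes. Of all probes 48.3% were higher in hNAG-1, from 29.4% without scaling to 68.8% with median scaling, and the direction counts given for the lists below moved with the scaling too. The higher side made up 21.4% of all probes at that threshold, and this share depended on the scaling and background correction. It was 70.7% with median scaling, 57.5% with quantile normalization, 54.2% with normexp background correction and 2.86% without scaling.

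Genes of the pyruvate dehydrogenase complex and its phosphatases were read for 7 of 9, and for 6 of these, or 5 without scaling, the hNAG-1 mean was above that of WT without passing the test. Pdhb, the E1 beta subunit, differed by 0.31 on the log2 scale (standard error 0.25) and Dlat, the E2 subunit, by 0.51 (standard error 0.30). Within slide 3 these were 0.13 and 0.02. For both genes WT 2 was the lowest of all arrays. Pdhb was 36904 on WT 2, beside 59606 to 79649 on the other WT arrays, and Dlat was 5844, beside 9774 to 14071. Pdp1, the phosphatase that opposes the kinases and that the array lists as Ppm2c, gave 156, 149, 141 and 164 in WT and 124, 126, 134, 123 and 115 in hNAG-1. All hNAG-1 arrays lay below all WT arrays, and the log2 difference was -0.29 with an unadjusted p of 0.0392 and an adjusted p of 0.654 in limma. The slide as a block gave -0.40 with an unadjusted p of 0.126 in limma. Over the scalings the difference of this probe ran from -0.44 without scaling to -0.08 with median scaling. A second Pdp1 probe, of lower mean intensity, differed by 0.21 in the other direction. Pdp2 was not measured.

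Of 30 measured genes of gluconeogenesis and glycolysis, 2 passed the unadjusted threshold, both lower. Pklr, the pyruvate kinase of liver and red cells, gave 379, 254, 367 and 407 in WT and 219, 140, 95.2, 171 and 348 in hNAG-1. As for Pdk4, hNAG-1 5 was the hNAG-1 array within the WT range, and the log2 difference of -0.97 (unadjusted p = 0.0206, adjusted p = 0.654, limma) became 0.05 with the slide as a block. Pfkfb2, an enzyme that sets fructose bisphosphate signalling, had a log2 difference of -0.59 (unadjusted p = 0.0499, adjusted p = 0.654, limma), while its other probes ranged from -0.13 to 0.10. The slide as a block gave -0.24 for Pfkfb2, with an unadjusted p of 0.612 in limma. Fbp1, the liver form of fructose bisphosphatase, differed by 0.13 (standard error 0.39), and G6pc, which releases free glucose, by -0.10 (standard error 0.30). Both of these changed sign with the scaling, and the slide as a block gave 0.27 and 0.76.

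Among 13 genes of glyceroneogenesis and glycerol handling, the use of Pck1 known from fat tissue, 0 passed the unadjusted threshold and 11 were higher in hNAG-1, from 6 without scaling to 13 with median scaling. The differences of largest size were those of Slc25a1, the mitochondrial citrate carrier, at 0.84 on the log2 scale (standard error 0.45), and Gpd1, which makes glycerol phosphate, at 0.31 (standard error 0.28). Within slide 3 they were 0.31 and 0.23. WT 2 was the lowest of all arrays for both genes. Slc25a1 was 6769 on WT 2, beside 19591 to 29328 on the other WT arrays, and Gpd1 was 56390, beside 118101 to 140631.

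Among 18 PPAR and fasting targets, the class to which Pdk4 belongs, 0 passed the unadjusted threshold and 11 were lower, from 4 with median scaling to 16 without scaling. Angptl4, a fasting-induced inhibitor of lipoprotein lipase, gave 64255, 49734, 54627 and 73178 in WT and 25390, 21740, 41722, 26805 and 82773 in hNAG-1. The 4 hNAG-1 arrays of slide 2 lay below every WT array, as for Pdk4, while hNAG-1 5 lay above every WT array, where Pdk4 was within their range. Its log2 difference was -0.78 (standard error 0.37), and 0.50 with the slide as a block. Cpt1b, the muscle carnitine palmitoyltransferase, differed by -0.75 (standard error 0.37), and by -0.67 with the slide as a block.

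Of 23 measured regulators of Pdk4 and Pck1, 1 passed the unadjusted threshold. Pparg, the nuclear receptor of fat cell differentiation, gave 2414, 2743, 3285 and 3592 in WT and 3777, 4623, 4088, 3666 and 3987 in hNAG-1. All hNAG-1 arrays lay above all WT arrays, and the log2 difference was 0.43 (unadjusted p = 0.0232, adjusted p = 0.654, limma). It had the sign opposite to Pdk4 and Pck1, and the slide as a block gave 0.32 with an unadjusted p of 0.27 in limma. Foxo1, a forkhead factor known to act on both genes in fasting, differed by 0.17 (standard error 0.21), and Ppargc1a, a coactivator of the same program, by 0.07 (standard error 0.47) with a sign that changed with the scaling. Their values within slide 3 were 0.29 and 0.95, and another Ppargc1a probe was at -0.24 over all arrays.

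**Figure D4:**
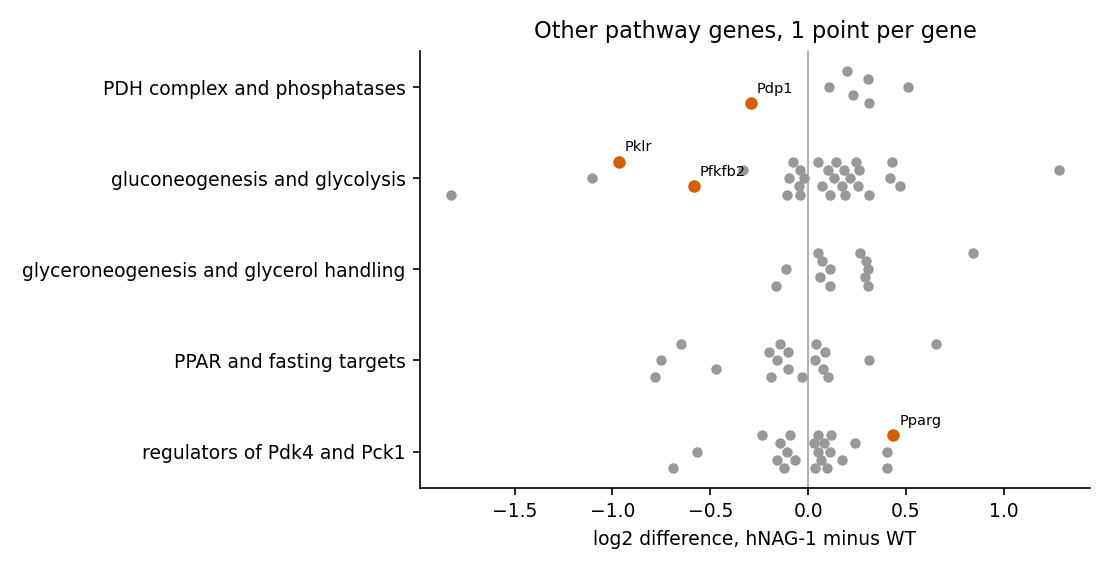
Log2 difference of hNAG-1 minus WT (horizontal axis) for the 91 measured genes of 5 pathway lists, 1 point per gene, with orange points for an unadjusted p under 0.05 in limma. Of the 4 orange points, Pdp1, Pklr and Pfkfb2 lie below 0 and Pparg above.

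Markers of other cells in the gland were read beside Pdk4 and Pck1. Skeletal muscle markers were lower in hNAG-1 for 12 of 12 genes, with a median log2 difference of -2.42, in which 5 genes not well above background on every array are counted with their measured values. The other 7 were well above background on all arrays. The 12 had summed levels of 6390 to 209886 in WT and 3471 to 62545 in hNAG-1. The lowest difference was that of Myh4 at -3.04 and the highest that of Mb at -0.78, and 0 of the 12 passed the unadjusted threshold. The slide as a block gave a median of -0.75, with Myh1 at 0.11. The muscle sum was 6390, 61824, 32831 and 209886 on WT 1 to 4, and 5852, 3471, 62545, 3899 and 43388 on hNAG-1 1 to 5. Pdk4, which muscle is known to express, and this sum were both low on hNAG-1 1, 2 and 4 and both highest on WT 4. On WT 1 Pdk4 was high and the sum low, and on hNAG-1 3 Pdk4 was low and the sum high. Cpt1b, which is named for muscle, and Pgam2 of the glycolysis list at -1.83 (standard error 1.32) were lower as well. Pgam2 was well above background on 8 of 9 arrays and was picked after its value was seen. Pfkm, the muscle phosphofructokinase of the same list, differed by -0.11 (standard error 0.23).

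Adipocyte markers, of which fat tissue Pck1 is a companion, were higher in hNAG-1 for 11 of 12 genes, and for 10 to 12 over the scalings, with a median log2 difference of 0.28, and 0 of the 12 passed the unadjusted threshold. Their summed level was 438427 to 830951 in WT and 618364 to 750369 in hNAG-1. Retn had the highest difference at 1.00 and Aqp7 the lowest at -0.11. The sum was 438427, 474088, 685133 and 830951 on WT 1 to 4, and 750369, 715052, 618364, 682807 and 717989 on hNAG-1 1 to 5. WT 1 had the lowest sum and the lowest Pck1 of the WT arrays, WT 2 had the next lowest sum and the highest Pck1 of all arrays, and the hNAG-1 arrays had sums within the WT range. Of 7 brown adipocyte markers 0 passed the unadjusted threshold, with a median of -0.07, or 0.06 with the slide as a block, from Ucp1 at -2.59 (well above background on 7 of 9 arrays) to Elovl3 at 0.41 (8 of 9), with a summed level of 5164 to 32336 in WT and 5883 to 10885 in hNAG-1. Ucp1 reached 4945 on WT 3 and 9658 on WT 4.

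Milk and luminal epithelium markers, which define the labelled tissue, were well above background on all arrays for all 10 measured genes, and 0 of the 10 passed the unadjusted threshold. Their median log2 difference was 0.13, or 0.03 with the slide as a block, between Glycam1 at -0.03 and Lalba at 0.35. Their summed level was 1230707 to 2253162 in WT and 1641678 to 2269266 in hNAG-1. WT 2, the array lowest for Pcx and Pdha1, had the lowest of these sums. Lymphocyte markers were lower for 11 of 11 with a median of -1.28, or -0.92 with the slide as a block, from Cd79b at -1.52 to Cd3e at -0.17, and 1 of the 11, Cd2, passed the unadjusted threshold, as did 5.62% of all probes. Its unadjusted p was 0.0489 and its adjusted p 0.654 in limma, and with the slide as a block its unadjusted p was 0.46. The summed level of the lymphocyte markers was 16915, 106544, 6094 and 5026 on WT 1 to 4. On hNAG-1 1 to 5 it was 4461, 3979, 4252, 18427 and 5780. WT 2 thus stood far above all other arrays, while WT 1, WT 3 and WT 4 lay within the hNAG-1 range. The median without WT 2 was not computed. Of 7 macrophage markers 0 passed the unadjusted threshold, with a median of -0.10, or -0.57 with the slide as a block, from Lyz2 at -0.31 to Adgre1 at 0.22, and their summed level was 80566 to 167161 in WT and 72157 to 227200 in hNAG-1. The part of any of these cell types in the member differences was not tested.

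**Figure D5:**
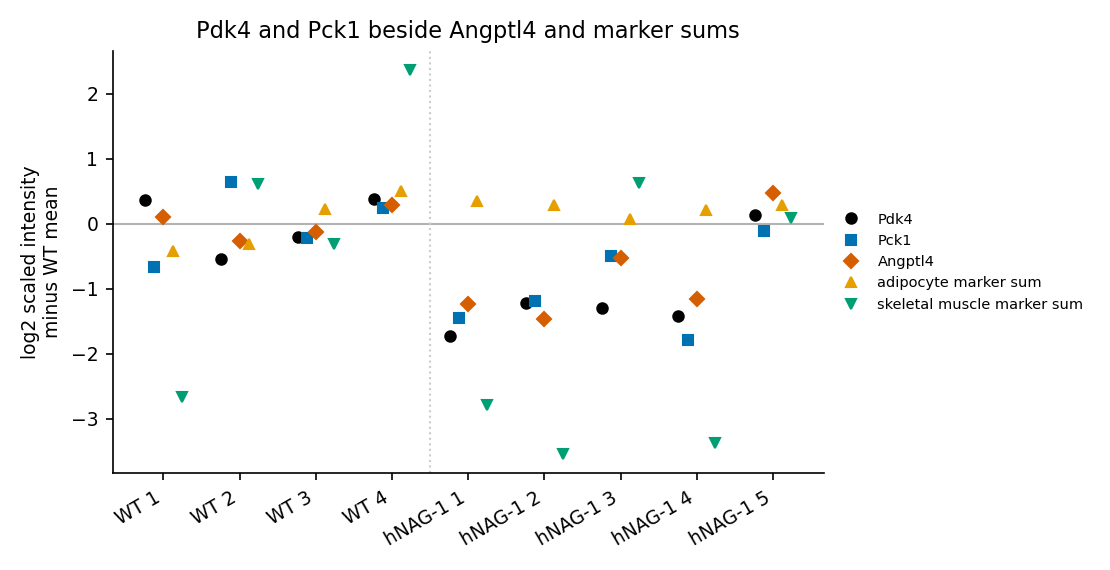
Log2 scaled intensity minus the WT mean (vertical axis) on each array (horizontal axis) for Pdk4, Pck1, Angptl4 and the summed adipocyte and skeletal muscle markers. Pdk4 and Angptl4 are low on hNAG-1 1 to 4, and on hNAG-1 5 Pdk4 lies within the WT range and Angptl4 above it. The muscle sum is low on WT 1 and on hNAG-1 1, 2 and 4, and highest on WT 4.

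Pdk4 and Pck1 were each compared with the 21196 other probes that carry a gene name and were well above background on all arrays. Taken once per gene, those with the highest Pearson correlation to Pdk4 over the 9 arrays were 2810459M11Rik (0.953), Sfrs8 (0.951), Frk (0.949), 3200001K10Rik (0.933) and LOC675757 (0.933). Angptl4, chosen after its values were seen, ranked 9 among the probes with 0.909. For Pck1 they were Mllt3 (0.938), Ephb2 (0.934), Ttc3 (0.933), 2410089E03Rik (0.932) and As3mt (0.931). These are descriptions over 9 arrays that share slides and genotype, taken as the highest of many, and all 11 genes named here had a negative log2 difference between genotypes. With the slide as a block those differences lay between -0.13 and 0.50.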

How the data were processed

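The authors deposited Agilent Feature Extraction output of 9 Cy3 arrays (version 9.5.3.1 in the file headers), holding a background-subtracted intensity per feature without scaling between arrays, and a series table with the same intensities. The methods of the study name an ANOVA with limits on fold change (1.5) and intensity (65), and a normalization step is not given in the sources used here. From the deposited intensity, 1639 control features were left out, features of 1 probe were averaged, arrays were scaled to a common 75th percentile and log2 was taken. Genotypes were compared over 41174 probes in R version 4.3.3 by limma version 3.58.1 (lmFit and eBayes, two-sided, no covariates, Benjamini-Hochberg adjustment over all probes). Values with the slide as a block come from the same fit with slide as a term. Precision is limited by the number of arrays.

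Samples were grouped by their labels. The members and gene lists were chosen with earlier results of these data known. For a list gene with more than 1 probe, the brightest probe on average was taken. Genes named are all members, of each pathway list those with an unadjusted p under 0.05 (at most 4) or else the 2 with the largest difference, 9 fixed partners of the members, and of each marker list the extremes. For Pdk4 and Pck1 these are joined by the 5 named genes of highest correlation. Pgam2, Pfkm, Myh1 and Angptl4 as a neighbor of Pdk4 were chosen after their values were seen. RefSeq tables (GRCm38.p6) matched 11 of 12 member probes by accession, each to the symbol on the array, and gave promoters for all 9 members. Of the 91 pathway probes 80 were matched, and the Pdp1 probe called at the unadjusted threshold was not among them. The scripts were tested on simulated data. Alternatives were median scaling, no scaling, quantile normalization, normexp correction of the background (offset 50), outlier flags or dim probes left out, trend and robust estimation, the methods' test, slide as fixed or random block, slide 3 alone, each array left out, averaging the probes of a gene, and a replicate block.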

Additional observations from a re-analysis of the deposited data

Results flagged for a closer look

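Pdk4 on hNAG-1 5 was 3291, far from the next highest hNAG-1 array at 1296, and on the log2 scale the gap took a share of 0.724 of the range of the 5 arrays, past Dixon's critical value. Pcx on WT 2 was 36401, far below the next WT array at 69948, with a share of 0.969 on the log2 scale over 4 arrays, again past it. These were 2 of 24 groups tested over the member probes, and chance marks about 1 in 20. For Pdk4, hNAG-1 5 was the only hNAG-1 array on slide 3, and the other hNAG-1 arrays shared slide 2. Array and slide cannot be told apart here. Pdk4 was also chosen from these same values, so nothing is read from its flag.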

How the results depend on the processing

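Pdk4 was -1.10 over all arrays, and it reversed to 0.25 with the slide as a fixed block and within slide 3 alone. Pck1 was -1.01 and moved to -0.33 under the same settings. Background correction, scaling, outlier flags and slide as a random block left both with the same sign and within the spread between replicates. Leaving out 1 array at a time gave -1.41 to -0.95 for Pdk4 and -1.23 to -0.79 for Pck1. The median over the other 10 member probes was 0.00067, and it moved to 0.21 with median scaling, -0.15 without scaling, 0.27 with the slide as a block and within slide 3, and -0.06 to 0.10 with 1 array left out. Median scaling, no scaling and the slide as a block moved the median of all probes to 0.20, -0.16 and 0.19.

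The count of pathway genes at an unadjusted p under 0.05 was 4, and it was 9 with median scaling (8 of them higher), 7 with normexp background correction, 2 with quantile normalization and 1 to 7 with 1 array left out (2 without WT 1, 1 without hNAG-1 2, 7 without hNAG-1 5). For all probes it was 2315, and it was 3608 with median scaling, 1061 with normexp, 1499 with slide as a random block, 3700 within slide 3 and 1163 to 5909 with 1 array left out (1163 without hNAG-1 2, 1509 without hNAG-1 3, 5909 without hNAG-1 5). After adjustment 1 probe passed, 215 passed without hNAG-1 5 and 137 with the slide as a fixed block, while the methods' test gave 2007 and 0 after adjustment. The cause was not tested.

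Replicate numbers are shared by the genotypes but did not pair the arrays: deviations of same-numbered arrays correlated at 0.28, -0.20, -0.14 and -0.31, and 2 of 8 arrays correlated best with their own number. With the replicate block, from which hNAG-1 5 drops out, 5407 probes had an unadjusted p under 0.05, 6 pathway genes did, Pdk4 was -1.41 and Pck1 -1.23.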
